A study of Mus musculus with 12 samples.

Results

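The genes described here encode the enzymes of cholesterol and fatty acid synthesis, the proteins that sense and move sterols, and 2 sterol exporters. Their RNA was sequenced from primary colonic myofibroblasts, the contractile, matrix-producing mesenchymal cells that lie under the gut epithelium. The set is a list of 34 symbols, looked up in the deposited gene table, and all 34 were found among its 24411 rows. By role they are 18 enzymes of sterol synthesis, 6 sensing and transport regulators, 8 enzymes of fatty acid synthesis and desaturation, and 2 efflux transporters. The knockout group (TNFR1-/-, 6 libraries) lacks tumor necrosis factor receptor 1, encoded by Tnfrsf1a, and the control group (TNFR1+/-, 6 libraries) is heterozygous for the same allele, so no wild-type cells enter the comparison. Both groups are C57BL/6, and the cells were grown from the distal colon of mice of 16 weeks. They had been passaged 6 to 8 times in serum medium with insulin, transferrin, selenium and epidermal growth factor, and RNA was taken without any treatment on day 5 after seeding in Matrigel. The labels do not say which libraries came from separate mice or cultures, nor in which cells the receptor is lost, so p-values here measure the spread between libraries, which may be technical.

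Cells make cholesterol from acetyl-CoA by way of mevalonate, isoprenoid units, squalene and lanosterol. The transcription of nearly every enzyme on that route is driven by the SREBP proteins (genes Srebf1 and Srebf2), which stay in the endoplasmic reticulum membrane while sterols are plentiful. The escort protein Scap carries them to the Golgi for cleavage when sterols run low, and Insig1 and Insig2 hold Scap back when sterols are present. The Srebf2 product acts mainly on cholesterol genes and the Srebf1 product mainly on fatty acid genes. The exporters Abca1 and Abcg1 are targets of the oxysterol receptors (LXR), which respond to a sterol surplus. Cultured fibroblasts take up cholesterol from serum lipoproteins and also make their own.

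The 250 bases upstream of the start site were searched in the RefSeq promoter table (mouse build GRCm38.p6), which holds 26 of the 34 genes; Fdps, Fdft1, Sqle, Stard4, Scd1, Scd2, Fads1 and Abcg1 have no entry. Printed 5′ to 3′ are the promoters of 4 genes that were lowest in knockout 5 and 6 and higher in control 6 than in control 1 to 5 (Hmgcs1, Msmo1, Insig1 and Srebf2), and of 2 without that pair of features (Ebp and Fasn). Capitals mark a match on either strand to the sterol regulatory element core TCACNCCA, the CCAAT box, the GC box GGGCGG or the E-box CACGTG. A match is a description of the letters and not a site known to be bound.
Hmgcs1: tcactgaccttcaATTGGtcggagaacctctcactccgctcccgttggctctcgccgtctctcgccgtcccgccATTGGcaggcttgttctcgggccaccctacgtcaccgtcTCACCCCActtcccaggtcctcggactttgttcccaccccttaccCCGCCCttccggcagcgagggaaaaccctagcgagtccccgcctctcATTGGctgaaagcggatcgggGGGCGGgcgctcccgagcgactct
Msmo1: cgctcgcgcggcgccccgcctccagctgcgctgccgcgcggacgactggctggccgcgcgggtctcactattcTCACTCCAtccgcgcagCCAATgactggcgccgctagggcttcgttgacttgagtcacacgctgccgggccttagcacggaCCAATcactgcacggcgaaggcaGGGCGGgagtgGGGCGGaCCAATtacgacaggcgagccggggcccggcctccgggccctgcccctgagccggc
Insig1: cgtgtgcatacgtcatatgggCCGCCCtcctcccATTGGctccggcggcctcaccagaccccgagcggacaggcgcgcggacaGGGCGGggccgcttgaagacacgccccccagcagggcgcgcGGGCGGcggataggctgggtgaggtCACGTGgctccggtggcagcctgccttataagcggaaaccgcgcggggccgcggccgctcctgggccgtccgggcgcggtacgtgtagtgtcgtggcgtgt
Srebf2: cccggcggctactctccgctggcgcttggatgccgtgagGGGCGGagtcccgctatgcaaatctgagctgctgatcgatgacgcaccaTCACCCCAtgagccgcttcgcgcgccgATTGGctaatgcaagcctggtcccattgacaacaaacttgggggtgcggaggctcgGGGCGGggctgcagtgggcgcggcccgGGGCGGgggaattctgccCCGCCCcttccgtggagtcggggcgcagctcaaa
Ebp: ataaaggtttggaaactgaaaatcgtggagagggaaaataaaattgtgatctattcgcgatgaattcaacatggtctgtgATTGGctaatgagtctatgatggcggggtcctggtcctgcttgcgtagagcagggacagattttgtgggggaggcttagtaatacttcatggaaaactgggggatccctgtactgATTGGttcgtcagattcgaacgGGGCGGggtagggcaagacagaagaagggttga
Fasn: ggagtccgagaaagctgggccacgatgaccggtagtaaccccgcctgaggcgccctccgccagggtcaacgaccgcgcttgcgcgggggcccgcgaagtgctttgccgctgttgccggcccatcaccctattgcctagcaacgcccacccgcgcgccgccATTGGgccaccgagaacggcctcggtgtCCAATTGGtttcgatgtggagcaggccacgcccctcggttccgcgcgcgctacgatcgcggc
They lie at chr13:119690101-119690350 (plus strand) for Hmgcs1, chr8:64733579-64733828 (minus strand) for Msmo1, chr5:28071162-28071411 (plus strand) for Insig1, chr15:82147019-82147268 (plus strand) for Srebf2, chrX:8193513-8193762 (minus strand) for Ebp and chr11:120824548-120824797 (minus strand) for Fasn. The full classical sterol regulatory element of 10 bases, which contains the core, was in 0 of the 26 windows and in 0.0814% of the windows of all 27025 genes in the table. Its core was found in 3, namely Hmgcs1, Msmo1 and Srebf2, against 4.2% of all genes. CCAAT was present in 19 of the 26 windows (73.1%), against 37.5% of all genes and 40.9% of the genes tested in these cells. The GC box was in 22 windows (84.6%), against 35.4% of all and 65.8% of tested genes. The E-box was in 6 windows (Hsd17b7, Sc5d, Dhcr7, Insig1, Scap and Abca1; 23.1%), against 6.86% of all genes. Among tested genes the core was in 4.03% and the E-box in 10%. The core, CCAAT, the GC box and the E-box were thus each found more often than over the table as a whole, as a description with no test.

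Knockout libraries held 6543013 to 9937008 counts and control libraries 11890729 to 16458689. By their profiles there were 4 kinds of library, which the labels do not name and which are called sets here: knockout 1 to 4, the pair knockout 5 and 6, control 1 to 5, and control 6 on its own. The ribosomal RNA precursor Rn45s took 1.63% to 2.1% of counts in knockout 1 to 4. It took 7.01% and 8.25% in knockout 5 and 6, 0.871% to 1.19% in control 1 to 5 and 0.351% in control 6. The targeted gene Tnfrsf1a stood at 40.6 to 46.1 CPM (counts scaled to the size of the library) in the knockout libraries, at 73.5 to 81.3 in control 1 to 5 and at 54.9 in control 6 (log2 difference -0.76 ± 0.10 SE, edgeR adjusted p = 9.2e-05). Reads remained in the knockouts, and the part of the gene that the allele removes is not given in the sources used here. All 12 fibroblast and myofibroblast markers were detected. Levels of the genes described are therefore given per set, and the counts of calls also without the libraries that stand apart.

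How many of these genes differed between knockout and control depended on which libraries were included. Counts were tested over all 12146 genes that passed a filter on low counts, with the quasi-likelihood test of edgeR and Benjamini-Hochberg adjustment at 0.05, and all 34 genes passed the filter. Of the 34, 7 were called, 2 higher in the knockout (Fasn and Elovl6) and 5 lower (Mvd, Ebp, Scap, Srebf1 and Abcg1). Over all genes tested 43.0% were called, 21.4% higher and 21.6% lower. The share of called genes was lower here than in the background. Without control 6, 11 were called (6 higher and 5 lower), while the calls over all genes rose from 5219 to 6069 (3092 higher and 2977 lower). Without knockout 5 and 6, 22 were called, against 52.0% of all genes tested in that fit. The median log2 difference, knockout minus control, was 0.11 over the 34 genes and 0.02 over all genes, with the knockout value averaging over sets that lay on opposite sides of most controls.

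The spread over libraries had a recurring shape. In 28 of the 34 genes, knockout 5 and 6 held the lowest levels of all 12 libraries, which was so for 26.1% of all genes tested; the exceptions were Hsd17b7, Fasn, Acaca, Acly, Elovl6 and Abcg1. Knockout 5 and 6 both lay below knockout 1 to 4 in 31 genes (36.6% of all genes). Control 6 lay above each of control 1 to 5 in 30 genes (39.9% of all genes), the exceptions being Mvd, Fdps, Ebp and Abcg1. Knockout 1 to 4 all lay above control 1 to 5 in 24 genes (29.0% of all genes), and knockout 5 and 6 both lay below control 1 to 5 in 30 (40.8% of all genes). Control 6 fell inside the range of knockout 1 to 4 in 12 genes, which is close to the 32.6% found over all genes. Both features together, knockout 5 and 6 lowest of all and control 6 above its 5 companions, held in 25 genes against 13.7% of all genes.

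**Figure D1:**
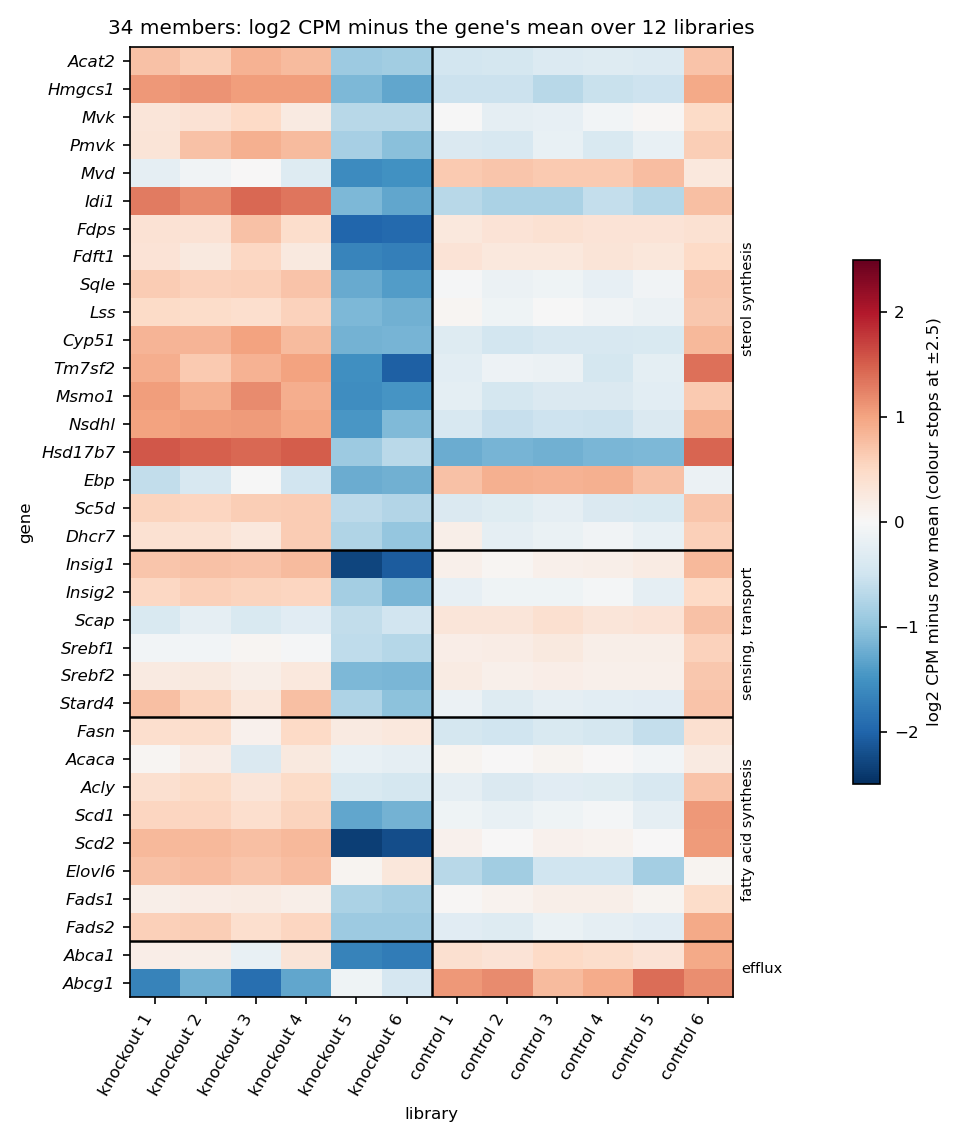
Level of each of the 34 genes (rows, grouped by role) in each library (columns, knockout left of the vertical line, control right of it), as log2 CPM minus the gene's mean over the 12 libraries, red above and blue below the mean. Knockout 5 and 6 are the lowest libraries in 28 rows, and control 6 stands above control 1 to 5 in 30.

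As a share of all counts, the 34 genes together took 0.440% to 0.450% in knockout 1 to 4, 0.164% in knockout 5 and in knockout 6, 0.303% to 0.318% in control 1 to 5, and 0.510% in control 6. The order of the sets was thus control 6, knockout 1 to 4, control 1 to 5, and knockout 5 and 6, with no overlap between them. On a log2 CPM scale, the median gene was 0.71 higher in knockout 1 to 4 than in control 1 to 5, with 28 genes above 0, and 0.85 lower in knockout 5 and 6 than in control 1 to 5, with 31 below 0 (median difference -0.85). The 2 parts of the knockout group therefore lay on opposite sides of most controls. Between knockout 5 and 6 and knockout 1 to 4 the median difference was -1.56, and between control 6 and control 1 to 5 it was 0.78. The medians over all genes tested were -0.02 to 0.00 in each of these contrasts. In bulk samples, fewer cells that express a gene and less RNA of it per cell cannot be told apart.

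Other markers moved with the same sets. The sum of 12 fibroblast and myofibroblast genes was 33950 to 34549 CPM in knockout 1 to 4. It was 14283 and 14148 in knockout 5 and 6, 25847 to 26886 in control 1 to 5 and 36598 in control 6. This order was that of the summed share of the lipid genes, but it did not hold gene by gene. Of the 12, 6 were higher and 6 lower in knockout 1 to 4 than in control 1 to 5 (median log2 difference 0.18). The 7 smooth muscle markers summed to 2407 to 2489 CPM in knockout 1 to 4, 955 and 980 in knockout 5 and 6, 525 to 613 in control 1 to 5 and 1258 in control 6. The sum of 14 proliferation genes was 1315 and 1350 CPM in knockout 5 and 6, 524 to 544 in knockout 1 to 4, and 411 to 485 in the controls. Cell cycle genes were thus highest where sterol genes were lowest. Of the 10 markers of adipocytes, a cell type rich in fatty acid synthesis enzymes, 4 passed the filter, and Cidec, Lep and Cfd were at 0 in all libraries. All 10 together summed to 27.6 to 52.4 CPM in the knockouts, 185 to 196 in control 1 to 5 and 66.8 in control 6. The sum did not stand for each gene. Of the 4 tested, 3 were higher and 1 lower in knockout 1 to 4 than in control 1 to 5 (median log2 difference 0.73, lowest -3.44). Macrophage and leukocyte markers (10 of 12 tested, Cd3e at 0) summed to 39.1 to 58.9 CPM in knockouts and 81.3 to 130.4 in controls, and 2 of 12 epithelial markers passed the filter. Neither these markers nor the Rn45s share or the depth was tested for its part in the results.

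The first enzymes of the sterol route join acetyl-CoA units into mevalonate and turn it into isoprenoid units. Hmgcs1, which makes the mevalonate precursor HMG-CoA, stood at 242, 246, 235 and 236 CPM in knockout 1 to 4, at 52.3 and 46.2 in knockout 5 and 6, at 78.1, 78.8, 70.5, 77.0 and 79.4 in control 1 to 5, and at 220.5 in control 6. The 4 high knockouts and control 6 were close to each other, with the remaining controls and knockouts far below. Knockout and control means were 176 ± 98.5 and 101 ± 58.8 CPM (SD, n = 6 each), and the log2 difference of 0.81 ± 0.46 SE did not pass (edgeR adjusted p = 0.17). Acat2, which joins the first acetyl-CoA units, and Mvk and Pmvk, which phosphorylate mevalonate, also had their lowest levels in knockout 5 and 6, with knockout 1 to 4 at 3.14, 2.05 and 3.10 times the level of knockout 5 and 6. For Mvd and Idi1, which finish and isomerize the isoprenoid unit, the patterns were different from each other. Idi1 stood at 95.7 to 114 CPM in knockout 1 to 4, 19.2 and 17.1 in knockout 5 and 6, 24.3 to 28.0 in control 1 to 5 and 70.5 in control 6. Its log2 difference was 1.19 ± 0.48 SE (edgeR adjusted p = 0.063). It passed without knockout 5 (edgeR adjusted p = 0.021), without knockout 6 (edgeR adjusted p = 0.018) or without control 6 (edgeR adjusted p = 0.017). Mvd fell in the knockouts, from 47.7 ± 5.33 to 22.2 ± 9.22 CPM (log2 difference -1.11 ± 0.26 SE, edgeR adjusted p = 0.0042). Its libraries did not overlap: knockout 1 to 4 were at 24.9 to 31.3 CPM, knockout 5 and 6 at 10.4 and 10.9, control 1 to 5 at 48.4 to 52.8, and control 6 at 37.3. All 6 knockouts lay below all 6 controls in 5 of the 34 genes (Mvd, Scap, Srebf1, Abca1 and Abcg1), against 12.5% of all genes, and above them in 1 (Elovl6), against 10.6%.

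The middle of the route builds and closes squalene. Fdps (farnesyl diphosphate synthase) and Fdft1 (squalene synthase) were at nearly equal levels in every library except knockout 5 and 6. Fdps was at 136 to 175 CPM in knockout 1 to 4, at 127 to 138 in control 1 to 5 and at 137 in control 6, but at 27.0 and 27.5 in knockout 5 and 6. Fdft1 was at 81.1 to 98.7, 82.1 to 87.3 and 97.5 CPM in the same 3 sets and at 22 and 21 in knockout 5 and 6. Here the spread lay inside the knockout group, and neither gene passed the test (edgeR adjusted p = 0.55 and 0.36). Sqle, the squalene epoxidase, Lss, which closes the ring to lanosterol, and Cyp51, which takes the first methyl group off it, followed the general order, with knockout 1 to 4 at 3.86, 3.14 and 4.11 times knockout 5 and 6 and control 6 at 1.77, 1.67 and 2.28 times control 1 to 5.

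The last enzymes trim lanosterol to cholesterol. Hsd17b7, which reduces the 3-keto group left after demethylation, had the widest separation within the controls: 17.1 to 18.5 CPM in control 1 to 5 and 111 in control 6, a 6.19-fold difference. Knockout 1 to 4 stood at 108 to 119 CPM and knockout 5 and 6 at 21.4 and 25.1, so control 6 lay inside the range of knockout 1 to 4 and knockout 5 and 6 lay near the remaining controls. The log2 difference was 1.32 ± 0.60 SE and did not pass (edgeR adjusted p = 0.094). Without control 6 it was 2.22 and passed (edgeR adjusted p = 0.0016). Msmo1, the sterol methyl oxidase, was at 167 to 204 CPM in knockout 1 to 4, 30.5 and 32.6 in knockout 5 and 6, 66.4 to 75.6 in control 1 to 5 and 143 in control 6. Tm7sf2, a sterol reductase of the same stretch, was at 9.5 to 12.03 CPM in knockout 1 to 4, 2.08 and 1.45 in knockout 5 and 6, 4.41 to 5.498 in control 1 to 5 and 15.6 in control 6. Neither of them passed (edgeR adjusted p = 0.25 and 0.79). Nsdhl, a partner of Msmo1 in demethylation, had knockout 1 to 4 at 4.89 times knockout 5 and 6, and Sc5d and Dhcr7, which act near the end of the route, at 2.43 and 2.42 times. Ebp, the isomerase that shifts the double bond in the sterol ring, ran against this pattern. It fell in the knockouts from 45.7 ± 10.2 to 18.7 ± 6.02 CPM (log2 difference -1.30 ± 0.23 SE, edgeR adjusted p = 0.00068). Control 6, at 25.5 CPM, was below control 1 to 5 (46.5 to 52.3) and inside the range of knockout 1 to 4 (18.3 to 27.8), with knockout 5 and 6 at 11.9 and 12.2.

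Of the 18 sterol synthesis enzymes, 0 were called higher, 2 lower (Mvd and Ebp) and 16 did not pass, against 21.4% higher and 21.6% lower over all genes. With edgeR 2 were higher at an unadjusted p under 0.05 (Idi1 and Hsd17b7), which DESeq2 called, and limma-voom called 0 higher. Limma-voom with weights that give less influence to libraries with more scatter called 14 higher. That weighted fit called 9095 of the 12146 genes tested, 4452 higher and 4643 lower. Without knockout 5 and 6, 11 were called higher, 2 lower and 5 did not pass. Over all 34 genes that fit called 22, 16 higher and 6 lower. Its background of 52.0% was over 12471 genes, 24.5% higher and 27.5% lower, so the share called among the 34 was then above it. The libraries left out held the lowest levels in 28 of the 34 genes, so more higher calls follow from the omission itself. The knockout group in that fit is a single set, and its genotype cannot be told apart from that set. Without control 6 as well, 14 of the 18 enzymes were called higher and 2 lower, and over the 34 genes 23 were higher and 6 lower, against 71.3% of 12382 genes called, 34.9% higher and 36.4% lower. In that last fit each genotype is a single set, genotype cannot be told apart from set, and its p-values measure only the small spread within sets. Mvd and Ebp were called lower in all 3 fits, and Fdps and Fdft1 in none.

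**Figure D2:**
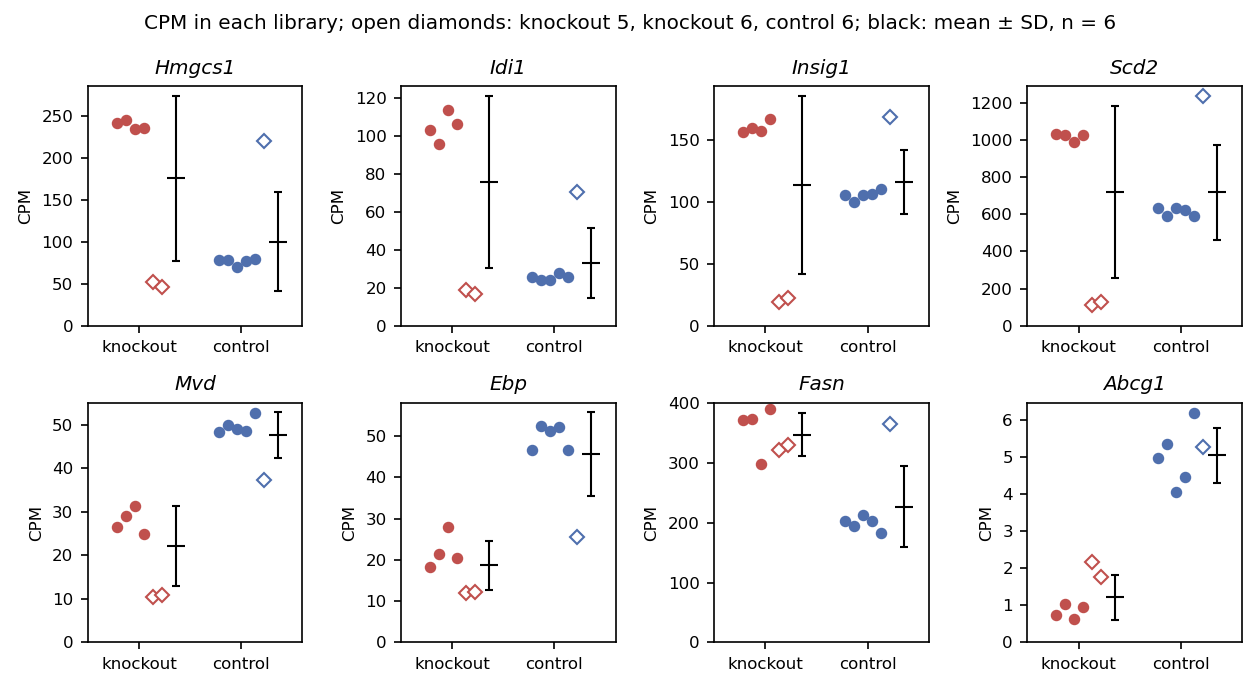
CPM of 8 genes in each library, knockout in red and control in blue, with knockout 5, knockout 6 and control 6 as open diamonds and the mean ± SD of 6 libraries in black; each axis starts at 0. Hmgcs1, Idi1, Insig1 and Scd2 are low in knockout 5 and 6 and high in control 6, whereas in Mvd and Abcg1 the 2 genotypes do not overlap.

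All 6 regulators had knockout 5 and 6 lowest and control 6 above control 1 to 5, against 13.7% of all genes. They divided in knockout 1 to 4, which all lay above control 1 to 5 in 3 of them (Insig1, Insig2 and Stard4), against 29.0% of all genes. Insig1, which holds Scap in the endoplasmic reticulum and is itself an SREBP target, was at 156, 159, 157 and 167 CPM in knockout 1 to 4 and at 19.6 and 22.7 in knockout 5 and 6. In control 1 to 5 it was at 99.9 to 110.2 CPM and in control 6 at 168. The 7.56-fold gap lay inside the knockout group, and the genotype means were nearly equal at 113 ± 71.7 and 116 ± 25.9 CPM (log2 difference -0.03 ± 0.48 SE, edgeR adjusted p = 0.96). Without knockout 5 and 6 its difference was 0.46 ± 0.14 SE and passed (adjusted p = 0.015), so the sign turned with those libraries. Insig2 and Stard4, a carrier of cholesterol between membranes, were likewise lowest in knockout 5 and 6, and Stard4 stood at 20.1 to 27.9 CPM in knockout 1 to 4, 9.65 and 8.18 in knockout 5 and 6, 13.2 to 15.1 in control 1 to 5 and 27.1 in control 6. Both differences were small over 12 libraries (log2 0.20 and 0.28, adjusted p = 0.60 and 0.49).

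Scap fell in the knockouts, from 139 ± 17.2 to 79.9 ± 7.59 CPM (log2 difference -0.80 ± 0.10 SE, edgeR adjusted p = 6.5e-05). Knockout 1 to 4 were at 80.2 to 89.0 CPM, knockout 5 and 6 at 68.4 and 74.7, control 1 to 5 at 129 to 138 and control 6 at 173. The groups did not overlap, and the 2 parts of the knockout group were closer to each other, at 1.18-fold, than for most genes of the list. Srebf1 also fell (log2 difference -0.47 ± 0.14 SE, edgeR adjusted p = 0.018), with knockout 1 to 4 at 107 to 116 CPM, knockout 5 and 6 at 72.8 and 69.4, control 1 to 5 at 126 to 133 and control 6 at 168. Its smaller difference likewise left no overlap between the genotypes. Srebf2 did not pass (log2 difference -0.36 ± 0.26 SE, adjusted p = 0.27). It stood at 186 to 200.5 CPM in knockout 1 to 4 and at 183 to 193 in control 1 to 5, whereas knockout 5 and 6 were at 76.9 and 75.7 and control 6 at 268. Of the 6 regulators, 0 were higher, 2 lower and 4 did not pass, against 21.4% higher and 21.6% lower over all genes. At an unadjusted p under 0.05 edgeR also had 0 higher, as had DESeq2 and limma-voom. With quality weights 3 were higher, in a fit that called 9095 genes, 4452 of them higher. Without knockout 5 and 6 the counts were 3 higher (Insig1, Insig2 and Stard4), 2 lower and 1 not past the test, against 24.5% higher and 27.5% lower over all genes.

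Of the fatty acid enzymes, the first ones turn citrate into long-chain fatty acids. Acly, which makes cytosolic acetyl-CoA, stood at 298 to 340.4 CPM in knockout 1 to 4, 186 and 180.2 in knockout 5 and 6, 185 to 209 in control 1 to 5 and 395 in control 6. Acaca, the carboxylase that commits acetyl-CoA to fatty acids, varied least, at 64.7 to 99.5 CPM over all 12 libraries (log2 difference -0.08 ± 0.11 SE, adjusted p = 0.57). Fasn, which builds palmitate, rose in the knockouts from 227 ± 68.0 to 347 ± 35.7 CPM (log2 difference 0.61 ± 0.16 SE, edgeR adjusted p = 0.0087). Knockout 5 and 6, at 322 and 329.6 CPM, were as high as knockout 1 to 4 at 298 to 389, and control 1 to 5 were at 183 to 213. Control 6, at 364 CPM, lay within the knockouts, so the groups overlapped in that library alone. Elovl6, which lengthens palmitate, rose from 19.3 ± 5.08 to 41.5 ± 7.97 CPM (log2 difference 1.10 ± 0.18 SE, edgeR adjusted p = 0.00040). Its knockout libraries were at 45.1 to 47.6 CPM in knockout 1 to 4 and at 29.2 and 33.8 in knockout 5 and 6, all above control 1 to 5 (15.3 to 19.7) and control 6 (28.9).

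The desaturases add double bonds to fatty acids, and none of the 4 passed the edgeR test over 12 libraries, whereas limma-voom with quality weights called Scd1, Scd2 and Fads2 higher. Scd2, the stearoyl-CoA desaturase, was at 1033, 1028, 987 and 1025 CPM in knockout 1 to 4, and at 115 and 126 in knockout 5 and 6. It was at 633, 592, 634, 620.5 and 592 CPM in control 1 to 5 and at 1233 in control 6. Among the 34 genes this 8.46-fold difference between the 2 parts of the knockout group was the largest, while the genotype means of 719 ± 464 and 717 ± 253 CPM were almost the same (log2 difference 0.00 ± 0.51 SE, adjusted p = 1.00). Its sign depended on the setting. Scd1, its paralog, was at 315 to 348 CPM in knockout 1 to 4, 95.8 and 104 in knockout 5 and 6, 202 to 228 in control 1 to 5 and 502 in control 6 (log2 difference -0.03 ± 0.36 SE, adjusted p = 0.96). Fads2, the first desaturase of polyunsaturated fatty acid synthesis, was at 44.8 to 51.1 CPM in knockout 1 to 4, 17.9 and 17.8 in knockout 5 and 6, 26.9 to 29.7 in control 1 to 5 and 64.7 in control 6. Fads1, which follows it in the route, was at 152 to 159, 80.1 and 76.7, 141 to 152, and 190.3 CPM in the same order of sets. Both had knockout 5 and 6 lowest and control 6 highest. Of the 8 fatty acid enzymes, 2 were higher, 0 lower and 6 did not pass in edgeR, over 12 libraries and without knockout 5 and 6 alike. When control 6 was left out as well, 6 were higher. Over all genes these fits called 43.0%, 52.0% and 71.3% in turn, with 21.4%, 24.5% and 34.9% higher. DESeq2 and limma-voom also called 2 higher and 0 lower, and edgeR had 0 lower at an unadjusted p under 0.05. Limma-voom with quality weights called 6 higher and 0 lower, in a fit that called 9095 genes, 4452 of them higher.

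Abca1 and Abcg1 pass cholesterol to lipoproteins outside the cell. Abcg1 fell in the knockouts from 5.06 ± 0.75 to 1.22 ± 0.62 CPM (log2 difference -2.02 ± 0.26 SE, edgeR adjusted p = 0.00011). It stood at 0.732, 1.03, 0.633 and 0.958 CPM in knockout 1 to 4, at 2.18 and 1.76 in knockout 5 and 6, at 4.97, 5.35, 4.06, 4.48 and 6.201 in control 1 to 5 and at 5.28 in control 6. The genotypes did not overlap, and it was the only one of the 34 genes with knockout 5 and 6 both above knockout 1 to 4. Abca1 was at 23.3 to 32.9 CPM in knockout 1 to 4, 8.30 and 7.86 in knockout 5 and 6, 33.3 to 37.1 in control 1 to 5 and 50.6 in control 6. All knockouts were below all controls, but the log2 difference of -0.78 ± 0.33 SE did not pass over 12 libraries (edgeR adjusted p = 0.070). Without knockout 4 it was -0.93 and passed (edgeR adjusted p = 0.044), and DESeq2 and limma-voom called it over 12 libraries. It also passed without knockout 5 and 6, at -0.38 ± 0.14 SE (adjusted p = 0.035), a difference smaller by more than 1.5 times with a smaller SE.

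**Figure D3:**
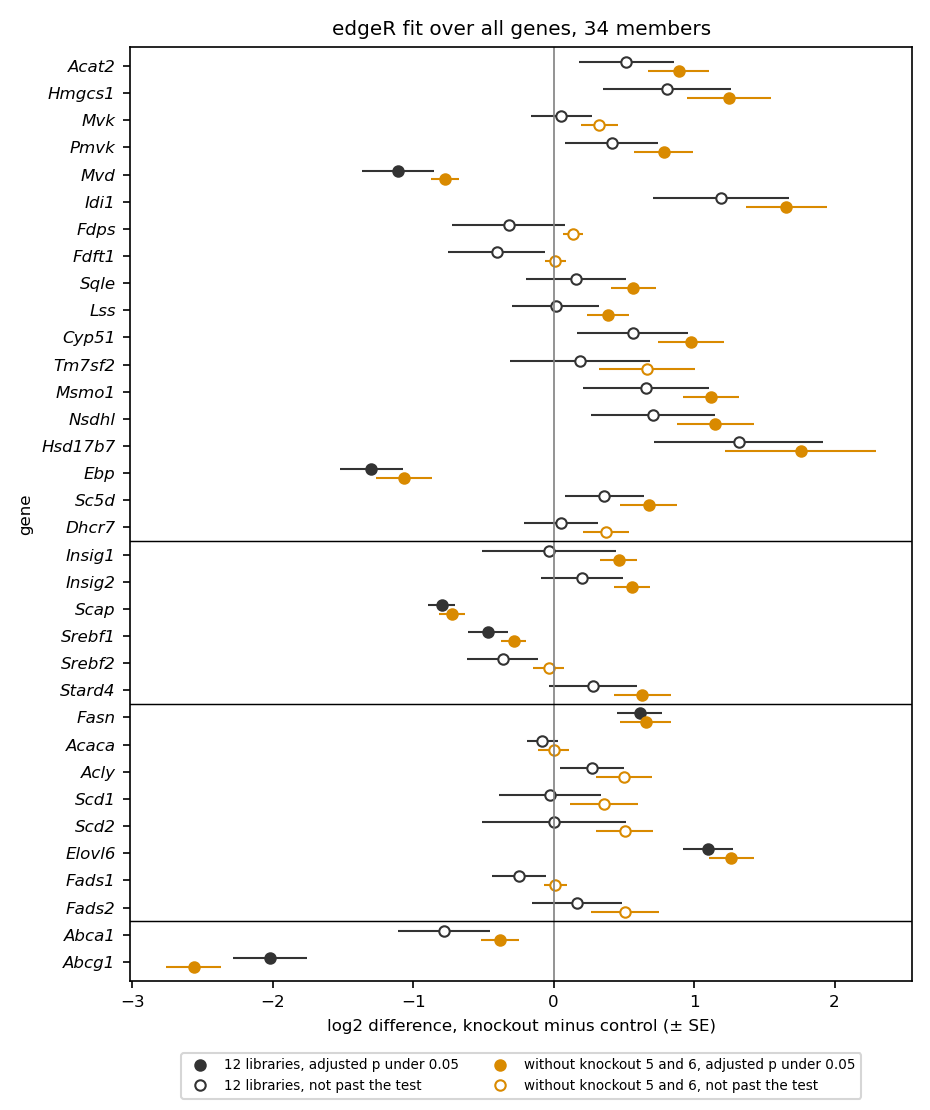
Log2 difference (knockout minus control, ± SE) of the 34 genes in the edgeR fit over 12 libraries (black) and without knockout 5 and 6 (orange); filled points have an adjusted p under 0.05 over all genes tested. The fit over 12 libraries calls 7 genes and the other 22, and most orange points lie to the right of the black ones.

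**Figure D4:**
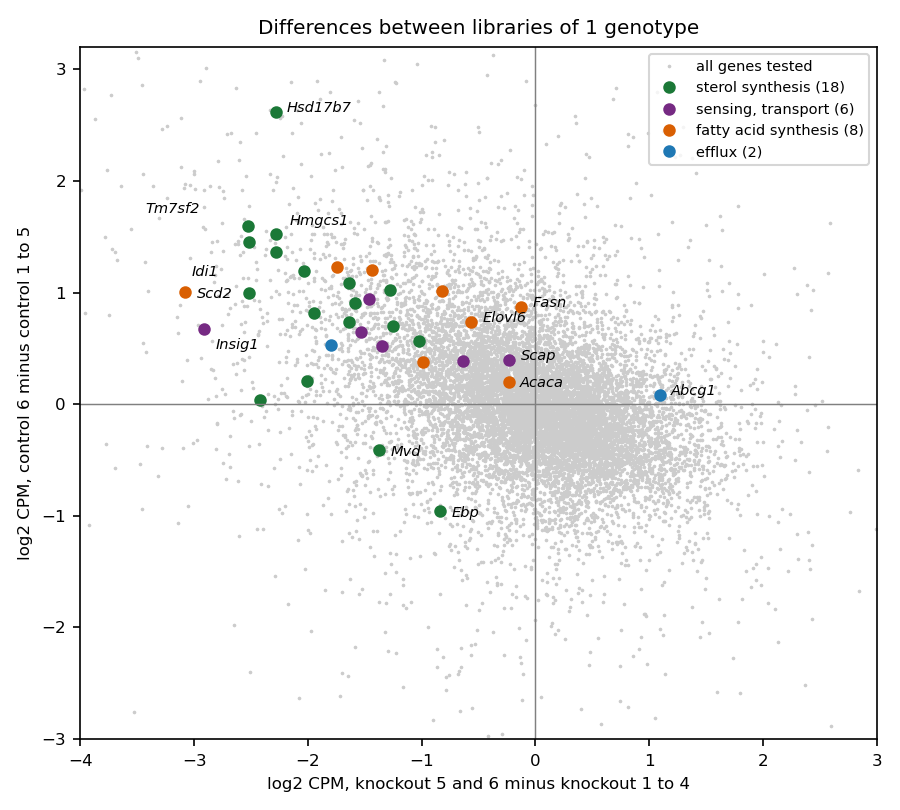
Differences between libraries of a single genotype in log2 CPM, knockout 5 and 6 minus knockout 1 to 4 (x axis) against control 6 minus control 1 to 5 (y axis), for all genes tested (grey; those outside the axes are not drawn) and for the 34 genes coloured by role. Most of the 34 lie at upper left, with Mvd and Ebp below 0 on the y axis and Abcg1 alone above 0 on the x axis.

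The medians per role, given as a description with no test, were as follows. Between knockout 5 and 6 and knockout 1 to 4, the median log2 difference was -1.98 over the 18 sterol enzymes (all 18 below 0), -1.41 over the 6 regulators, -0.90 over the 8 fatty acid enzymes and -0.35 over the 2 exporters, which went opposite ways (-1.80 for Abca1 and 1.09 for Abcg1). Between control 6 and control 1 to 5 the medians were 0.95, 0.58, 0.94 and 0.31. Knockout 1 to 4 against control 6, the 2 sets with the highest levels, gave medians of -0.02, -0.29, -0.28 and -1.63, so the exporters had the median farthest from 0. Over all genes tested each of these medians was between -0.02 and 0.00. The x and y differences in the plot of within-genotype differences share no library.

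The genes around these pathways were counted on lists of 96 other genes, of which 87 were tested, with 11 higher, 28 lower and 48 not past the test. The share called, 44.8%, was close to the 43.0% over all genes. Without knockout 5 and 6 the lists gave 25 higher and 31 lower of 89 tested, and limma-voom with quality weights gave 36 higher and 33 lower, so the excess of lower calls over 12 libraries depended on the libraries and the test. The 20 genes named here by the smallest p on their lists kept their direction and passed without knockout 5 and 6. They had been picked in the fit over 12 libraries, which includes all libraries of the smaller fit, so this is no separate support. Among the 5 lists, 1 held oxysterol receptors, their targets and enzymes that make or break down oxysterols, and its calls are part of the counts above. It had 0 higher (edgeR, also 0 at an unadjusted p under 0.05), 8 lower and 3 not past the test of 11. Over all genes 21.4% were higher and 21.6% lower. The list had a median log2 difference of -0.76. Without knockout 5 and 6 it had 0 higher and 9 lower of 12, against 24.5% and 27.5%. Ch25h, which makes the LXR ligand 25-hydroxycholesterol, fell by 2.04 ± 0.25 SE on the log2 scale (edgeR adjusted p = 6.6e-05), from 110.9 to 119 CPM in control 1 to 5 and 53.5 in control 6 to 17.7 to 20.4 in knockout 1 to 4 and 40.1 and 33.8 in knockout 5 and 6. Cyp7b1, which breaks such oxysterols down, fell by 2.20 ± 0.27 SE (adjusted p = 7.8e-05). Nr1h2, a receptor of this class, fell by 0.52 ± 0.07 SE (adjusted p = 0.00011), and Mylip, an LXR target that degrades lipoprotein receptors, by 0.65 ± 0.12 SE (adjusted p = 0.0012). Abcg1 was lower as well. Since the list mixes receptors, targets and enzymes with opposite actions on oxysterols, its count of lower calls is not a measure of receptor activity. Macrophage markers were also lower in the knockouts and their part was not tested.

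Other sterol and isoprenoid synthesis genes gave 3 higher, 2 lower and 6 not past the test of 11, a share called (45.5%) close to that over all genes (43.0%). Lbr, a nuclear envelope protein with the same sterol reductase activity as Tm7sf2, rose by 0.70 ± 0.12 SE on the log2 scale (edgeR adjusted p = 0.00059) and was highest in knockout 5 and 6, at 53.1 and 53.4 CPM against 35.3 to 40.0 in knockout 1 to 4 and 23.2 to 29.8 in the controls. This order was unlike that of Tm7sf2. Pdss1, for the ubiquinone side chain, rose (log2 difference 1.31 ± 0.34 SE, adjusted p = 0.0075; 0.60 without knockout 5 and 6), and Dhdds, for dolichol, and Fntb, a farnesyltransferase subunit, fell by 0.41 and 0.36 (adjusted p = 0.0030 and 0.0077). Uptake, sensing and esterification genes gave 2 higher, 7 lower and 13 not past the test of 22, again a share (40.9%) close to the 43.0% over all genes. The higher ones were Scarb1 and Soat1. Scarb1, a lipoprotein receptor, rose by 0.63 ± 0.10 SE (adjusted p = 0.00035). Soat2, which esterifies cholesterol, fell by 1.51 ± 0.28 SE (adjusted p = 0.0011), with control 6 at 3.43 CPM, among the knockouts (2.69 to 4.66), and control 1 to 5 at 10.7 to 12.2. Gramd1b and Gramd1a, carriers of cholesterol from the plasma membrane, fell by 1.76 ± 0.16 and 0.42 ± 0.11 SE (adjusted p = 1.2e-05 and 0.0078).

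Other genes of fatty acid and triglyceride synthesis gave 4 higher, 5 lower and 14 not past the test of 23 (39.1% called, against 43.0% of all genes). The lower ones were Acacb, Elovl5, Mid1ip1, Agpat2 and Dgat2, and Me1 was among the higher. Of the elongation cycle, in which Elovl6 does the first step, Hacd1, Hacd3 and Hsd17b12 rose by 1.40 ± 0.13, 0.40 ± 0.08 and 0.34 ± 0.07 SE on the log2 scale (edgeR adjusted p = 1.2e-05, 0.0014 and 0.0028). Hacd1, a dehydratase of that cycle, was at 41.8 to 56.95 CPM in knockout 1 to 4, 36.8 and 34.8 in knockout 5 and 6, 14.7 to 17.3 in control 1 to 5 and 20.7 in control 6, without overlap. The elongase Elovl5, which acts on polyunsaturated fatty acids, fell by 0.54 ± 0.11 SE (adjusted p = 0.0014), the opposite direction to Elovl6. Oxidation and storage genes gave 2 higher, 6 lower and 12 not past the test of 20 (40% called, against 43.0% of all genes), the higher ones being Acadm and Pdk4. Ppara and Ppard, nuclear receptors for fatty acids, fell by 2.0 ± 0.31 and 0.77 ± 0.14 SE (adjusted p = 0.00029 and 0.0012). The uptake protein Cd36 and the lipase Lipe fell by 1.18 ± 0.21 and 1.16 ± 0.22 SE (adjusted p = 0.00082 and 0.0012), both at low levels of at most 5.44 CPM in any library.

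Some of these counts are uncertain where a near-identical sequence can share reads. In the mouse GENCODE M21 transcripts, 39.1% of the 50-base stretches of Acat2 also occur in Acat3, 30.4% of Acaca and 26.2% of Fdps in pseudogenes or other genes, 17.7% of Idi1, 9.87% of Tm7sf2 and 9.38% of Fdft1 likewise, and 4.56% of Scd1 and 3.97% of Scd2 mostly in each other. On the opposite strand, exons of other genes cover 18.3% of Fdft1 (Ctsb), 13.2% of Scap, 12.1% of Hmgcs1 and 9.22% of Idi1, and the strand setting of the counting is not given in the sources used here.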

How the data were processed

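Libraries were strand-specific (dUTP) and made from oligo-dT-selected RNA, per the labels. The deposited values are expected counts per gene, estimated by the authors with RSEM 1.2.15 and Bowtie2 2.1.0, per the submitters' processing notes. Since those notes list a human build although the symbols are mouse, no gene coordinates are taken from the files. In each library 2.67% to 3.48% of values had decimals, and all were rounded. Depth was 6543013 to 16458689 counts per library.

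Groups and replicate numbers came from the sample titles. The 6 knockout and 6 control libraries were compared in R 4.3.3 with edgeR 4.0.16 (quasi-likelihood test), with genotype as the only term, scaling by trimmed means (TMM), a filter on low counts (filterByExpr, count 10, total 15) and adjustment over all genes at 0.05. CPM use the scaled totals, and differences between sets use log2 CPM with a prior count of 2. SE is the log2 difference over the root of the F statistic. The scripts were tested on simulated counts. Chi-squares of the counts found no pair of libraries within counting noise (1.38 to 9.83 per degree of freedom in a set, 104.8 to 178.8 between sets of a genotype).

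The genes, lists, sets and library omissions were chosen with earlier results of these data known. Values per library are given for called genes and, by role, for up to 4 uncalled ones with the widest range of set means; Hmgcs1, Fdps, Fdft1, Acly and Acaca were added after their values were seen. Each other list gives its 4 called genes with the smallest p, and a gene that a short count would name is not reported here. Alternatives were DESeq2 1.42.0, limma-voom (limma 3.58.1) with and without quality weights, other scalings and filters, a fold of 1.5, a replicate block, and removal of Rn45s or of each library in turn.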

Additional observations from a re-analysis of the deposited data

Results flagged for a closer look

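In a group of 6 libraries, the gap between the highest or lowest library and its neighbour was divided by the range of the group, and a gap share above the critical value of Dixon's test was marked. Of the 68 groups tested for the 34 genes, 30 were marked, all of them controls with control 6 at the end, 28 with it highest and 2 with it lowest. Control 6 stood apart in many other genes too: over all genes tested it was marked in 39.7%, with it highest in 21.8% and lowest in 17.9%, and it lay outside the range of control 1 to 5 in 81.4%. Chance marks about 1 in 20 groups. No knockout group was marked, where the 2 low libraries stand together. Among the sterol synthesis enzymes with control 6 highest, the gap shares were 0.919 for Acat2, 0.941 for Hmgcs1, 0.690 for Mvk, 0.844 for Pmvk, 0.919 for Idi1, 0.663 for Fdft1, 0.857 for Sqle, 0.808 for Lss, 0.933 for Cyp51, 0.903 for Tm7sf2, 0.880 for Msmo1, 0.916 for Nsdhl, 0.985 for Hsd17b7 and 0.898 for Sc5d. For the regulators they were 0.849 for Insig1, 0.816 for Insig2, 0.795 for Scap, 0.825 for Srebf1, 0.880 for Srebf2 and 0.865 for Stard4. For the fatty acid enzymes they were 0.833 for Fasn, 0.887 for Acly, 0.913 for Scd1, 0.934 for Scd2, 0.675 for Elovl6, 0.788 for Fads1 and 0.927 for Fads2, and for the exporters 0.779 for Abca1. With control 6 lowest they were 0.715 for Mvd and 0.783 for Ebp.

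The same check was run on the other genes named by the smallest p on their lists and on Tnfrsf1a, but not on Soat1 and Pdk4. Of the genes checked, 3 had control 6 highest, with gap shares of 0.780 for Scarb1, 0.650 for Hsd17b12 and 0.686 for Cd36. In 7 it was lowest, with 0.804 for Dhdds, 0.787 for Gramd1b, 0.836 for Soat2, 0.873 for Ch25h, 0.747 for Cyp7b1, 0.786 for Elovl5 and 0.703 for Tnfrsf1a; the last of these is the targeted gene.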

How the results depend on the processing

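Over 12 libraries 5219 genes, 7 of the 34 and 39 of the 87 others were called. In that order, limma-voom with quality weights called 9095, 29 and 69, the test against a fold of 1.5 called 1173, 3 and 10, and the fit without knockout 5 and 6 and control 6 called 8827, 29 and 70, which leaves out 3 libraries. Without knockout 5 and 6 the count was 22 of the 34. Leaving out each library in turn gave 7 to 11 of the 34, with the 11 reached without control 6, 4432 to 6069 genes and 33 to 40 others. Other settings kept each count within 1.5 times.

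The 7 called genes kept their direction under every alternative run. Against a fold of 1.5, Ebp, Elovl6 and Abcg1 passed and Mvd (adjusted p = 0.075), Scap (0.056), Srebf1 and Fasn did not. Several uncalled ones did not. Scd2, at 0.00, gave a log2 difference of -0.067 with library totals alone, -0.42 with limma-voom, -0.014 with no filter, -0.32 with the replicate block, and -0.13 to 0.23 with 1 library left out. Tm7sf2 gave -0.12 with limma-voom. With quality weights Insig1 gave 0.56, Srebf2 0.057, Scd1 0.63 and Fads1 0.054. Without knockout 5 and 6 Insig1 gave 0.46, Scd1 0.36 and Fads1 0.012, and without control 6 as well Insig1 gave 0.60, Srebf2 0.069, Scd1 0.65 and Fads1 0.083. With 1 library left out Insig1 ranged from -0.17 to 0.19 and Scd1 from -0.13 to 0.27, both above 0 without knockout 5, knockout 6 or control 6. The cause was not tested.

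Deviations from the group means correlated between same-numbered libraries at -0.36 to 0.18. Each of knockout 1 to 4 correlated best with control 6, so these values follow the sets. They cannot decide whether equal replicate numbers mark paired libraries. The replicate block called 3974 genes, 6 of the 34 and 32 of the others, and Srebf1 was no longer called (adjusted p = 0.056). The count of 28 genes with knockout 5 and 6 lowest was the same under each scaling and filter run. Knockout libraries were shallower than all controls, and counting error is largest for Abcg1 at about 1 CPM.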

Other observations

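Of the 87 other lipid genes tested, 44 had their lowest levels in knockout 5 and 6 and 9 their highest, against 26.1% and 26.6% of all genes tested. Soat1, which esterifies cholesterol for storage and was picked out after its values were seen, was among the latter. It stood at 575.5 and 558 CPM in knockout 5 and 6, 235 to 254 in knockout 1 to 4, 198 to 219.5 in control 1 to 5 and 198 in control 6, and was called higher (log2 difference 0.76 ± 0.24 SE, edgeR adjusted p = 0.023). In knockout 5 and 6 the storage enzyme was thus high where the synthesis enzymes were low, as a description of those 2 libraries.

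Pdk4, a kinase that turns pyruvate away from acetyl-CoA, had an order like that of Hsd17b7 and was also picked out after its values were seen. It was at 27.0 to 27.7 CPM in knockout 1 to 4, 4.98 and 7.97 in knockout 5 and 6, 4.75 to 7.43 in control 1 to 5 and 20.5 in control 6 (log2 difference 1.32 ± 0.49 SE, edgeR adjusted p = 0.044).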
